A study of Mus musculus with 2 samples.

Results

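The epidermal differentiation complex is a stretch of mouse chromosome 3 that holds many genes of the outermost skin layers. The genes described here are those of the complex outside the Sprr and S100 families: the late cornified envelope genes (Lce), the fused S100 genes (Flg2, Hrnr, Rptn, Tchh and Tchhl1) and 5 other envelope genes (Lor, Ivl, Kprp, Lelp1 and Crct1). They were chosen by name, as every probe of the array whose gene name began with Lce and a digit or was one of those names or Flg. This gave 31 genes with 36 probes, of 31035 gene names on the array. No probe carried the name Flg. Of the 31 genes, 30 were measured, meaning that on both arrays at least 1 probe was unsaturated and well above background, as for 22729 genes in all. Lce3a was the exception, with its probe not well above background on either array.

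The arrays compared dorsal skin of newborn (P0) Sdr9c7-/- mice with skin of Sdr9c7+/+ (wild type) mice of the same age, both on the C57BL/6J background. Sdr9c7 encodes a short-chain dehydrogenase that, per the study's title, oxidises acylceramides of the skin barrier. There was 1 array per genotype, each hybridised with RNA pooled from 5 animals, so no difference could be checked in replicates and no test could be run. The labels give skin as the tissue and the design text epidermis, and markers of muscle, fat and dermis were measured on both arrays. Genotype cannot be told apart from the array itself or from the litters and dissections behind each pool. How many cells of a type a skin held and how much RNA each cell carried cannot be told apart either.

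The cornified envelope replaces the cell membrane of a keratinocyte as it dies at the skin surface. Involucrin (Ivl) is laid down early as a scaffold, loricrin (Lor) makes up most of the mature envelope, and the small, cysteine-rich Lce proteins are added late, with transglutaminases joining the proteins to each other. The fused S100 proteins carry a calcium-binding S100 domain followed by long repeats. Filaggrin, the best known of them, packs keratin filaments and is later broken down to amino acids that hold water in the dead layers, whereas trichohyalin (Tchh) belongs mainly to the inner root sheath and medulla of the hair. In human skin LCE3 genes are low in undisturbed epidermis and induced by barrier damage and in psoriasis.

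Probe sequences show what the arrays read in the Lce families. By their codons, 2 of 24 Lce probes fell in the coding repeats, both for Lce1 genes. In these probes 80% or more of the codons in an open frame were for cysteine, proline, glycine, serine, lysine or glutamine. They are shown because they carry the composition by which the family is known, and the capitals mark the cysteine codons, 4 in each probe. The first lies at chr3:92473024-92473083 and the second at chr3:92593304-92593363 on mm9, both on the minus strand, and both were lower on the Sdr9c7-/- array (log2 differences of −0.91 and −0.85).
Lce1a2: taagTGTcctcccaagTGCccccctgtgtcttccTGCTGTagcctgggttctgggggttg
Lce1j: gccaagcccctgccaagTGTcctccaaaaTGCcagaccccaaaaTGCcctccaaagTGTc

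Near-identical paralogs limit what a probe can tell apart. Lce probes were compared with each other and not with whole transcripts. Low identity between probes thus does not show that a probe reads its own gene alone. Among 133 pairs of probes for different Lce1 genes the median identity was 40.4%, and 1 pair was over 80% identical, Lce1h with a probe of Lce1i. Those probes matched at 56 of 60 bases, so each may read both transcripts. The first 30 bases of each are shown with the differing bases in capitals, from chr3:92567272-92567331 (Lce1h) and chr3:92581269-92581328 (Lce1i) on mm9, minus strand.
Lce1h: aagacttcaAacaaatGgtgcaggaggagc
Lce1i: aagacttcaGacaaatAgtgcaggaggagc

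Lce3 probes were closer to each other, with 3 of 15 pairs over 80% identical. All 3 lay among Lce3b, Lce3c and Lce3d, so the values of those genes are not independent readings. Lce3b and Lce3c differed at 6 bases. Their first 30 bases, from chr3:92737872-92737931 and chr3:92749506-92749565 on mm9, plus strand, are shown with the differing base in capitals.
Lce3b: tcaagaaaagcccagctagtcttgttttGt
Lce3c: tcaagaaaagcccagctagtcttgttttAt

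Sdr9c7, the targeted gene, had a signal of 0.0479 on the Sdr9c7-/- array, against 0.324 on the wild type array. Signals are relative to the array's 75th percentile, which is 1, and differences are log2 values of Sdr9c7-/- minus wild type. The difference for Sdr9c7 was −2.76, or 6.78-fold lower, from 1 probe. Whether the deletion covers the bases this probe reads was not examined. Over all measured genes the median difference was −0.04, and Pearson's r between the arrays was 0.994 across genes, which are not independent replicates. No spot was saturated on either array.

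All 14 Lce1 genes gave a lower signal in Sdr9c7-/- skin, with a median difference of −0.85 and a range of −1.46 to −0.45. Over all measured genes 56.9% were lower to any degree. The 4 Lce1 genes at least 2-fold lower were Lce1k, Lce1h, Lce1l and Lce1i, whereas 1.36% of all measured genes passed that fold. At 1.5-fold the count was 12 of 14, against 6.05% of all genes, the exceptions being Lce1a1 and Lce1b. Lce1m lay just past that fold, at 1.503-fold lower, and the count was 10 to 12 under other settings. No Lce1 gene was higher.

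**Figure D1:**
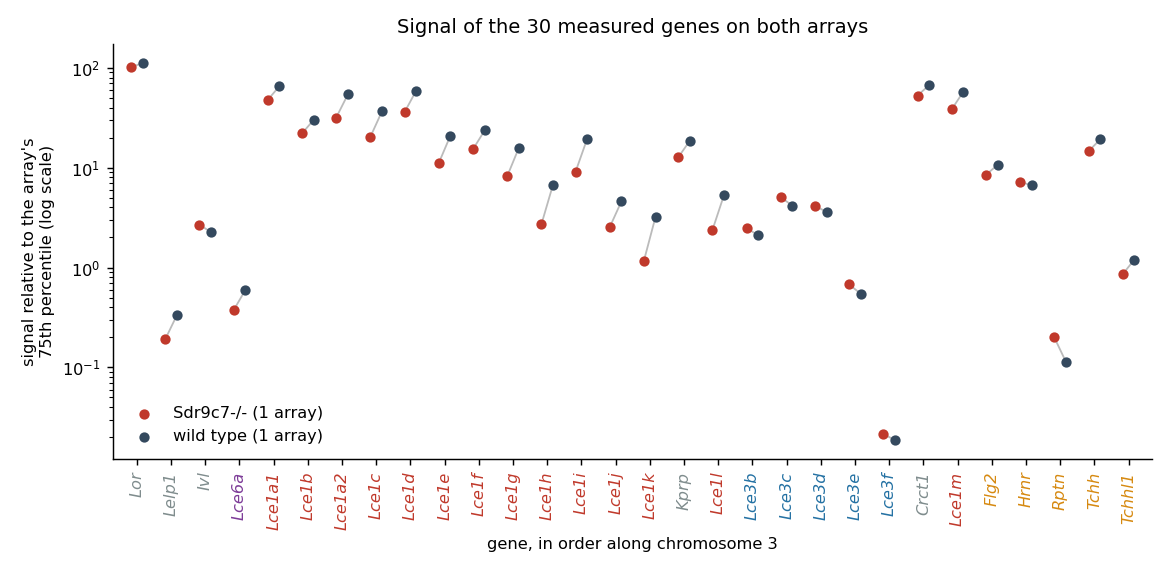
Signal of the 30 measured genes relative to the array's 75th percentile (log axis), in order along chromosome 3, with the Sdr9c7-/- array left of the wild type array for each gene and a line joining them. All 14 Lce1 genes slope up to wild type and all 5 measured Lce3 genes slope down; heights of different genes are of different probes and are not levels of transcript to be compared.

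Lce1k differed most among the members. Its signal was 1.18 on the Sdr9c7-/- array, against 3.24 on the wild type array, a difference of −1.46 or 2.75-fold lower. Lce1h had 2.71 on the Sdr9c7-/- array, against 6.76 on the wild type array (−1.32). For Lce1l the signal was 2.36 in Sdr9c7-/- skin, against 5.31 in wild type skin (−1.17). These genes had modest signals among the Lce1 probes, and each was read by 1 probe. Lce1i was read by 2 probes that gave similar differences. The first had 20.6 on the Sdr9c7-/- array, against 42.2 on the wild type array (−1.03), and the probe that resembles Lce1h had 4.04 on the Sdr9c7-/- array, against 9.004 on the wild type array (−1.16).

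Lce1 genes with brighter probes differed less. Lce1a1 had 47.8 in Sdr9c7-/- skin, against 65.7 in wild type skin (−0.46, or 1.37-fold lower). For Lce1d the values were 36.1 on the Sdr9c7-/- array, against 59.2 on the wild type array (−0.71). Lce1m had 38.4 in Sdr9c7-/- skin, against 57.7 in wild type skin (−0.59). Even the smallest of these differences exceeded the spread between probes of a gene, an SD of 0.248 pooled over 5177 genes with at least 2 measured probes. That spread is technical and holds no difference between animals.

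A middle group lay between 1.5-fold and 2-fold lower. Lce1g had 8.22 on the Sdr9c7-/- array, against 15.8 on the wild type array (−0.94). Lce1e had 11.2 in Sdr9c7-/- skin, against 20.96 in wild type skin (−0.91). Lce1j, the dimmest of this group, had 2.54 in Sdr9c7-/- skin, against 4.59 in wild type skin (−0.85). Lce1f differed less than these, with 15.3 in Sdr9c7-/- skin, against 23.6 in wild type skin (−0.62).

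Lce1a2 and Lce1c were each read by 2 probes. The probes of Lce1c agreed closely, at −0.81 and −0.89. Those of Lce1a2 gave −0.91 for the coding-repeat probe shown above and −0.62 for the brighter one, a gap near the between-probe SD. All 6 probes of the 3 Lce1 genes that had 2 were lower on the Sdr9c7-/- array.

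**Figure D2:**
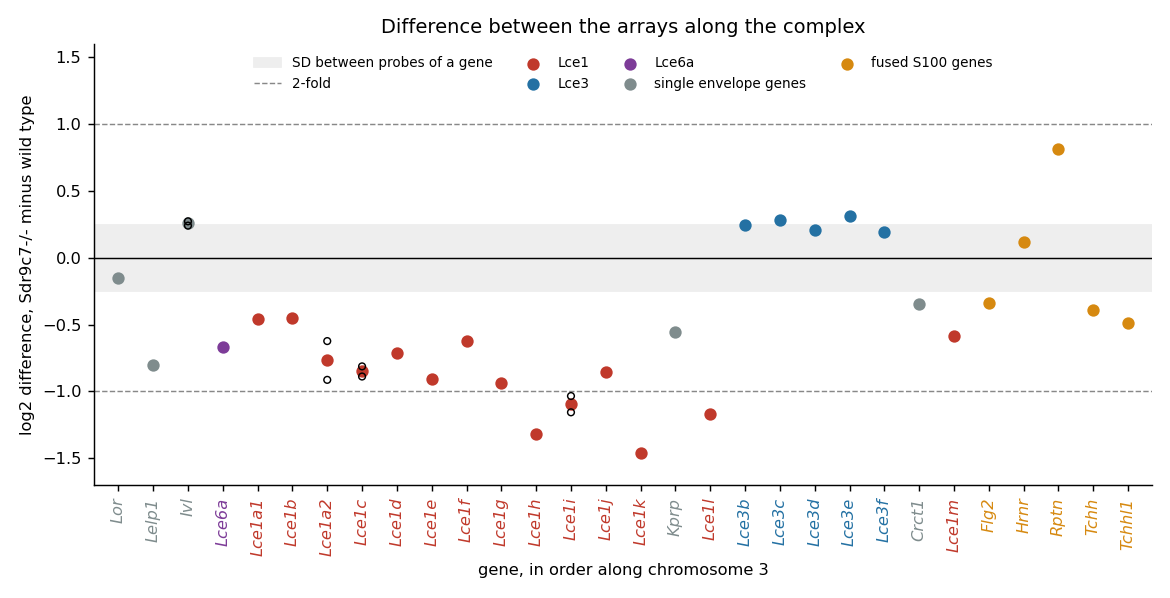
Log2 difference, Sdr9c7-/- minus wild type, of the 30 measured genes in order along chromosome 3, coloured by subfamily, with open circles for the probes of genes read by 2. The grey band is 1 SD between probes of a gene (0.248) and the dashed lines mark 2-fold; 4 Lce1 genes lie below the lower line and no gene lies above the upper one.

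Lce1b allowed a direct view of the spot error, because its probe was printed many times over the slide. Over 9 usable spots its signal ran from 21.1 through a median of 21.96 to 23.4 on the Sdr9c7-/- array, against 27.9 through 30.3 to 32.3 on the wild type array. The spots of the arrays did not overlap, and how many other repeated probes share this was not counted. The difference averaged −0.45 with an SD of 0.07 between spots (n = 9 spots of 1 probe, which are not biological replicates), and every spot was lower on the Sdr9c7-/- array. Another spot was marked as an outlier by the scanner software and left out, and it too gave −0.45. The SD between spots of the same probe was 0.058 as the median of 320 probes with 8 or more spots. Lce1b was thus the least different Lce1 gene, closely followed by Lce1a1, and still far beyond the error of its spots. Under some other settings Lce1a1 differed less than Lce1b.

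**Figure D3:**
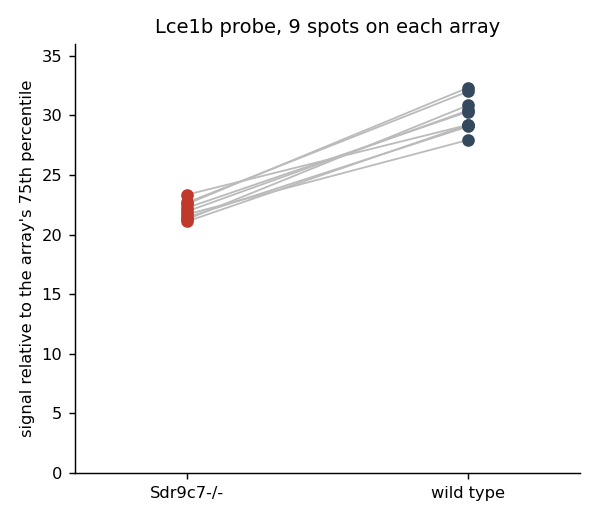
Signal of the Lce1b probe relative to the array's 75th percentile in 9 spots, with the Sdr9c7-/- array on the left and the wild type array on the right and lines joining spots at the same place in the array layout. The Sdr9c7-/- spots lie between 21.1 and 23.4 and the wild type spots between 27.9 and 32.3.

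Along chromosome 3 the Lce1 genes run from Lce1a1 to Lce1l, with Lce1m apart beyond the Lce3 genes. The first 7, Lce1a1 to Lce1f, had a median difference of −0.71 and none at 2-fold. The next 6, Lce1g to Lce1l, had a median of −1.13, and 4 of them were at least 2-fold lower. This split was made after the values were seen. Spearman's rho between the difference and the order was −0.57 over the 14 genes (Pearson's r −0.58), −0.79 (r −0.76) without the 2 genes farthest from the middle of the order and −0.83 without Lce1m.

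Position and probe brightness moved together, so the order alone does not describe the pattern. The difference also followed the mean signal of the probe on both arrays, with rho 0.82 and r 0.83 over 14 genes, and rho 0.82 and r 0.85 without the 2 farthest. Dimmer probes showed larger differences, and most of the dimmer probes belong to genes from Lce1h on. Lce1j, one of the dimmest, differed by −0.85, close to the family median. The points share both arrays and related sequences, and brightness also depends on the probe's own sequence. The part of either in the spread among Lce1 genes was not tested.

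**Figure D4:**
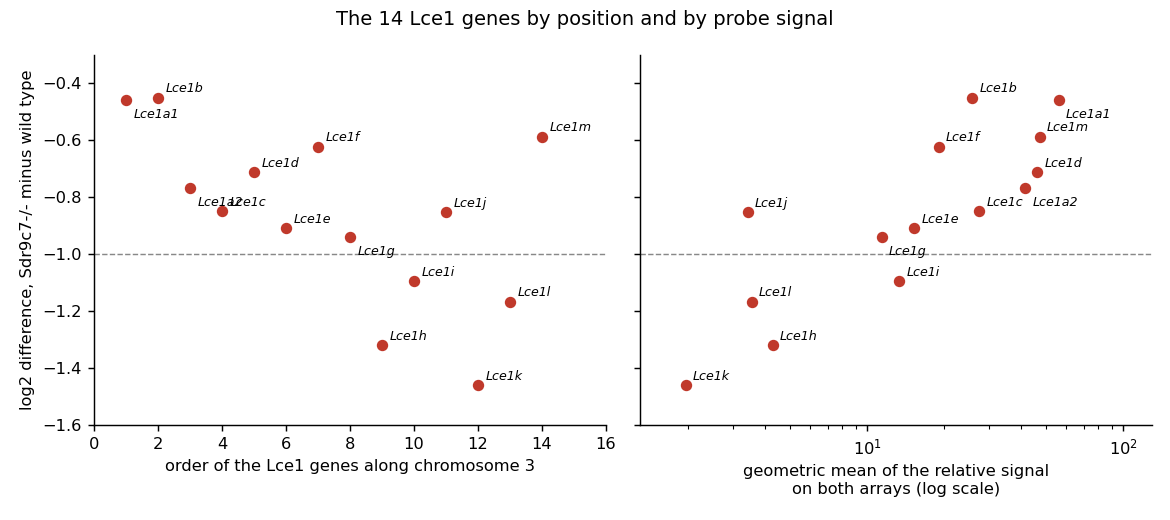
Log2 difference, Sdr9c7-/- minus wild type, of the 14 Lce1 genes against their order along chromosome 3 (left) and against the geometric mean of their relative signal on both arrays (right, log axis), 1 point per gene. The dashed line marks 2-fold; the genes below it are Lce1h, Lce1i, Lce1k and Lce1l, and Lce1m, last in order, has a difference of −0.59.

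The measured Lce3 genes lay on the other side of 0. All 5 gave a higher signal in Sdr9c7-/- skin, by 0.20 to 0.31 with a median of 0.25, and none reached 1.5-fold, which 2.36% of all measured genes did in this direction. Lce3e had the largest difference, with 0.677 on the Sdr9c7-/- array, against 0.546 on the wild type array (0.31, or 1.24-fold higher). Lce3c had 5.06 in Sdr9c7-/- skin, against 4.17 in wild type skin (0.28). Lce3b had 2.49 in Sdr9c7-/- skin, against 2.10 in wild type skin (0.25). Each of these differences was close to 1 SD between probes of a gene.

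Lce3d and Lce3f differed by less than that SD. For Lce3d the signal was 4.16 in Sdr9c7-/- skin, against 3.60 in wild type skin (0.21). Lce3f was near the lower end of detection, with 0.0215 on the Sdr9c7-/- array, against 0.0187 on the wild type array (0.20). The Lce1 median minus the Lce3 median was −1.101 on the log2 scale, and the ranges of the families did not overlap. Sequence shared between the Lce3b, Lce3c and Lce3d probes means that the 5 genes may be fewer than 5 independent readings.

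Lce6a, the sole Lce6 gene on the array, lay next to the Lce1 genes and was lower, like them. Its signal was 0.374 on the Sdr9c7-/- array, against 0.594 on the wild type array (−0.67, or 1.59-fold lower). It was read by 1 dim probe.

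The 5 other envelope genes were mixed, with a median of −0.35 and 4 of 5 lower. Lor had a signal of 101 in Sdr9c7-/- skin, against 112 in wild type skin. Its difference of −0.15 was smaller than the SD between probes of a gene. Ivl was the only one of these 5 that was higher, at 2.69 on the Sdr9c7-/- array, against 2.26 on the wild type array, and its 2 probes gave 0.27 and 0.24. The scaffold gene and the main envelope gene thus differed in sign, each by about the between-probe SD or less.

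Kprp, a proline-rich keratinocyte protein gene that lies between Lce1k and Lce1l, had 12.7 in Sdr9c7-/- skin, against 18.6 in wild type skin (−0.56). Crct1, next to Lce1m, had 52.8 on the Sdr9c7-/- array, against 67.2 on the wild type array (−0.35). For Lelp1, a late cornified envelope-like gene, 1 of 2 probes was above background, with 0.191 in Sdr9c7-/- skin, against 0.333 in wild type skin (−0.80). Kprp differed less than the Lce1 genes on either side of it, and Crct1, whose other neighbour is Lce3f, less than Lce1m.

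The fused S100 genes had a median of −0.34 and went both ways. Rptn, which encodes repetin, was the highest of all members, with 0.1997 on the Sdr9c7-/- array, against 0.114 on the wild type array (0.81, or 1.76-fold higher). It passed 1.5-fold but not 2-fold, which 0.528% of all genes passed in this direction. Its probe was dim and lay in an area of the slide where dim spots scattered more than elsewhere. Scatter was the median absolute deviation of the log2 difference, scaled to an SD, in windows of 21 rows. The largest value in that area was 0.555, against a median of 0.348 over the windows of the slide. Of the other members, Tchhl1, Hrnr, Lce1m, 1 spot of Lce1b and a probe each of Lce1c and Lce1i also lay in such areas. The part of that area in these values was not tested.

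Flg2, whose product resembles filaggrin, had 8.46 in Sdr9c7-/- skin, against 10.7 in wild type skin (−0.34). Hrnr, for hornerin, had 7.23 on the Sdr9c7-/- array, against 6.65 on the wild type array (0.12), which is within the between-probe SD. Filaggrin itself was read by 3 probes that carry transcript identifiers in place of the symbol and lie outside the naming rule. They differed by −0.27, −0.23 and 0.13, so these probes of the same protein's transcripts disagreed in sign. The probes that gave −0.27 and 0.13 lay in slide areas with scattered spots, and the one that gave −0.23 did not. All 3 filaggrin probes were looked up after the values of the members were seen.

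Tchh had 14.6 in Sdr9c7-/- skin, against 19.2 in wild type skin (−0.39). Tchhl1, its neighbour, had 0.857 in Sdr9c7-/- skin, against 1.201 in wild type skin (−0.49). Hair markers were lower beside them. Of 10 measured inner root sheath markers 9 were lower, with a median of −0.52 and a summed signal of 84.3 in Sdr9c7-/- skin, against 109.9 in wild type skin. Krt72 (−0.91) and Krt26 (−0.69), type II and type I keratins of the inner root sheath, were the lowest of them, and Trps1 (0.33) was the only one higher. Of 13 hair cortex and medulla genes 11 were lower, with a median of −0.60 and a sum of 19.5 in Sdr9c7-/- skin, against 29.2 in wild type skin. The part of hair in the values of Tchh and Tchhl1 was not tested.

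The other probes within the stretch from Lor to Tchhl1 (chr3:91884206-93275887 on mm9, 1392 kb) did not share one direction. There were 42, of which 35 were measured, and their median was −0.05. The 12 measured Sprr probes had a median of 0.35 and a range of −1.19 to 2.45. Of them 4 were at least 2-fold higher and 1 at least 2-fold lower, against 0.528% and 1.36% of all measured genes. The 23 others had a median of −0.15 and a range of −0.97 to 0.15, with 17 lower and 6 higher. Prr9, a proline-rich gene beside Lelp1, differed by −0.69, and 2310050C09Rik, between Lce1l and the Lce3 genes, by −0.57. Probes of both signs lay side by side along the stretch.

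Enzymes and scaffold proteins that build the envelope from these products showed little difference. Of 19 measured genes for cross-linking and scaffold 11 were lower and 8 higher, none reached 1.5-fold, and the median was −0.03. The lowest were Padi3 (−0.40), a deiminase of hair and epidermis, and Cdsn (−0.24), for the desmosomal protein corneodesmosin. Highest were the transglutaminase gene Tgm3 (0.27) and Casp14 (0.22), for the caspase of cornification. Tgm1, for a main cross-linking enzyme of the epidermal envelope, had 2.03 on the Sdr9c7-/- array, against 2.30 on the wild type array (−0.18).

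Suprabasal keratinocyte markers summed to 340.2 in Sdr9c7-/- skin, against 343 in wild type skin, with a median difference of 0.02 over 15 genes. Krt1 and Krt10, the keratin pair of the differentiating layers, differed by 0.03 and −0.03. Krt2 (−0.69), a keratin of the uppermost living layers, was the lowest of this list, from a dim probe. Basal markers had a median of 0.12 over 8 genes and a sum of 162 in Sdr9c7-/- skin, against 143 in wild type skin. The layer markers other than Krt2 all lay within 0.47 of 0, and so did Lce1a1 (−0.46) and Lce1b (−0.45). The remaining Lce1 genes lay farther from 0. The part of the layers in the Lce1 values was not tested.

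Known regulators of the complex were measured for 35 of 36 genes, with a median of 0.03. None was 2-fold lower and 4 were at least 2-fold higher: Fos (1.73), Fosb (1.55), Ovol1 (1.29) and Fosl1 (1.11). Fos, Fosb and Fosl1 encode subunits of the AP-1 factor, and Ovol1 a zinc finger repressor that promotes growth arrest and differentiation of keratinocytes. Fos had 6.91 on the Sdr9c7-/- array, against 2.08 on the wild type array. Vdr (−0.40), the vitamin D receptor gene, and Hopx (−0.26) were the lowest. Klf4, a factor needed for the skin barrier, had 17.6 in Sdr9c7-/- skin, against 18.8 in wild type skin (−0.09), whereas Grhl3, another such factor, had 3.82 in Sdr9c7-/- skin, against 2.48 in wild type skin (0.63).

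**Figure D5:**
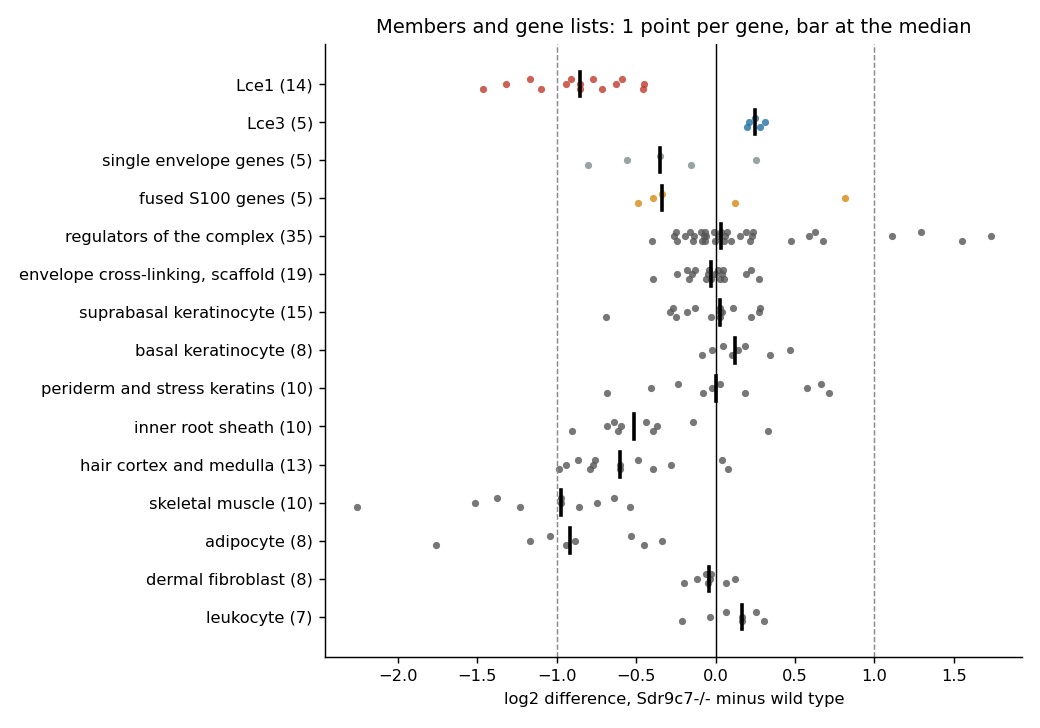
Log2 difference, Sdr9c7-/- minus wild type, of each measured gene in the member subfamilies and in 11 gene lists, 1 point per gene, with a bar at each median and the number of genes in brackets. Lce1 genes (median −0.85) lie below 0 together, as do the skeletal muscle (−0.97) and adipocyte (−0.91) markers. The envelope cross-linking and suprabasal lists, which share some genes, centre near 0.

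Markers of other tissues in the sample moved as well. All 10 skeletal muscle markers were lower in Sdr9c7-/- skin, with a sum of 129.6, against 226 in wild type skin, and Pvalb (−2.26) was the lowest. All 8 adipocyte markers were lower, with a sum of 51.2 in Sdr9c7-/- skin, against 80.1 in wild type skin, and Cfd (−1.76) was the lowest. Fibroblast markers had a median of −0.04 (sum 318 in Sdr9c7-/- skin, against 327 in wild type skin) and leukocyte markers one of 0.16 over 7 measured genes (sum 37.4 in Sdr9c7-/- skin, against 33.6 in wild type skin). Periderm and stress keratins had a median of 0.00 (sum 66.4 in Sdr9c7-/- skin, against 66.9 in wild type skin), with Krt23 (−0.68) the lowest and Krt4 (0.71) the highest. Among all listed genes Krt74, Cd207 and Hnf4a were not measured on both arrays, Krt83, Evplp1 and Csta matched no probe, and Padi3 is in 3 of the lists. The cross-linking and suprabasal lists also share genes, among them Tgm1, Tgm3 and Casp14, so they are not independent readings. The part of tissue make-up in the differences of the members was not tested.

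Promoters of the members were read from RefSeq (GRCm38.p6), as 250 bases before to 50 after the start of each gene. The table held 29 of them, including Flg, with none for Lce1f, Crct1 and Kprp. The motif TGANTCA is a loose form of the AP-1 site, since N stands for any base. Searched on both strands, it was in 0 of 13 Lce1 and 0 of 6 Lce3 promoters. It was in 4 of 6 fused S100 promoters (Flg2, Flg, Rptn and Tchhl1) and in 2 of 3 of the other envelope genes (Lor and Ivl). Over 32851 promoters listed, 7.81% held it. The copy in Rptn read TGATTCA and the copy in Flg2 TGAATCA. These are reverse complements, and so the same site read from opposite strands. Copies with C or G at the N were not counted separately. The genes with this motif included both higher ones (Rptn and Ivl) and lower ones (Flg2, Tchhl1 and Lor). Rptn (chr3:93393449-93393748) and Flg2 (chr3:93197023-93197322), both on the plus strand and picked after their values were seen, are shown with the motif in capitals, as fused S100 genes that differed in opposite directions.
Rptn: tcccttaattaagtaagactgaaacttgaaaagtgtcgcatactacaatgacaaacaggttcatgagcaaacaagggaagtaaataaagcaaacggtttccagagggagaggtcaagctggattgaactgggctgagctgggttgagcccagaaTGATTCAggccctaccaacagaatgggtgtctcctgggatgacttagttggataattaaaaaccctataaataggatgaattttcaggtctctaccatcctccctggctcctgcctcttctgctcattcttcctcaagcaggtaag
Flg2: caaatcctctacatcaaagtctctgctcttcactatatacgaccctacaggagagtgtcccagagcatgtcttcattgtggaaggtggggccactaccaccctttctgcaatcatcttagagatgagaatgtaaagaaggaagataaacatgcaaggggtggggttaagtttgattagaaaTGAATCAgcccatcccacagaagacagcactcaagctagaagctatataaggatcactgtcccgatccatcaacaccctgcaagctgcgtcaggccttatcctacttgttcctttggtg

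At the median, Lce promoters resembled each other more within a family than between families. The median share of identical bases in a pairwise alignment was 69.7% over 78 Lce1 pairs and 67.7% over 15 Lce3 pairs. Over 78 pairs of an Lce1 with an Lce3 promoter it was 61.0%, with a range of 55.7% to 65.7%. Pairs of Lce1l or Lce1m with another Lce1 promoter lay within that range, from 59.3% to 63.7%. The run ATAAAA was the most shared run of 6 bases, in 12 of 13 Lce1 and 6 of 6 Lce3 promoters and in 11.1% of all promoters. In all 18 it lay 20 to 45 bases before the start. Among runs of 8 bases found in 1 family and not in the other, CTGTCTCA was in 10 of 13 Lce1 promoters and 0.965% of all, and AGGATAAA in 5 of 6 Lce3 promoters and 0.499% of all. These runs were sought on the coding strand after the values were seen, AGGATAAA overlaps ATAAAA, and paralogs share sequence by descent.

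The promoters of the Lce1 and Lce3 genes with the most negative and most positive difference in each family are shown, with these runs in capitals. They are Lce1k (chr3:92807842-92808141, minus strand, −1.46), Lce1b (chr3:92656877-92657176, minus strand, −0.45), Lce3f (chr3:92991967-92992266, plus strand, 0.20) and Lce3e (chr3:92966811-92967110, plus strand, 0.31), on GRCm38.p6. Both Lce1 promoters held CTGTCTCA although their genes lay at opposite ends of the family's range.
Lce1k: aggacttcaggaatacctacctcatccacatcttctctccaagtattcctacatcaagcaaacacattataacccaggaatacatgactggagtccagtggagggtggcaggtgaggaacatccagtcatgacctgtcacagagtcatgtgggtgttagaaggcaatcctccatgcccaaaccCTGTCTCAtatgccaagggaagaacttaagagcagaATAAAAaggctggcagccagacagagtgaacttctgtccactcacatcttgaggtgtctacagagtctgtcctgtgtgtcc
Lce1b: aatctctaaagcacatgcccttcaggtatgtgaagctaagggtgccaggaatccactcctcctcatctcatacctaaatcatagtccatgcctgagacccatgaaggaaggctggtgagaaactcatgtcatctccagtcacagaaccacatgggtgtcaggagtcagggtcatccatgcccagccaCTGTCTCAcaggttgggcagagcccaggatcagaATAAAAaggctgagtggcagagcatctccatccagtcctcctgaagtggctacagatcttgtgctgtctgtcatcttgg
Lce3f: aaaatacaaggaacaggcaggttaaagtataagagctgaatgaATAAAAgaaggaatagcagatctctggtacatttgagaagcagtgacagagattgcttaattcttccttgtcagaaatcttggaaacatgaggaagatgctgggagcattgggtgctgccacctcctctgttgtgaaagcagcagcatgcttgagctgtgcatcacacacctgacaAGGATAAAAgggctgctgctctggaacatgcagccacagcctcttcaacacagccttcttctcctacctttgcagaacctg
Lce3e: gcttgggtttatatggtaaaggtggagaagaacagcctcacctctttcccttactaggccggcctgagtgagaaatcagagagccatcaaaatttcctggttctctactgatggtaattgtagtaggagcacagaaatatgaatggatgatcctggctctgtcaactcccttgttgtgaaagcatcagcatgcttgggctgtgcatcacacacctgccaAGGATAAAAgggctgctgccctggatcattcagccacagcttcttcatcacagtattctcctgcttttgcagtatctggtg

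Other motifs were also counted. The TATA box TATAAA, searched on the coding strand, was in 2 of 13 Lce1, 0 of 6 Lce3, 2 of 3 other envelope and 3 of 6 fused S100 promoters, and in 8.32% of all. The run ATAAAA, which shares the letters ATAAA with it, lay 20 to 45 bases before the start in 18 of 19 Lce1 and Lce3 promoters. The KLF motif CCACNCCC, on both strands, was in 0 of 13 Lce1, 0 of 6 Lce3 and 0 of 6 fused S100 promoters, in 1 of 3 of the other envelope genes (Ivl, with 2 copies) and in 17.6% of all. AACCNGTT, the GRHL motif, was found in Rptn alone among the members and in 2.09% of all promoters. Absence of these letters says nothing of distant elements, which this complex is known to have.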

How the data were processed

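Per the file headers, the authors' scanner files hold the intensity of each of 44397 spots on a mouse 1-colour array, background-subtracted and corrected for spatial trends. The submitters' processing notes name Agilent Feature Extraction 11.5.1.1. For each spot the series matrix, as deposited, gives a ratio that equalled the processed intensity divided by a constant per array, 2080 for Sdr9c7-/- and 1906 for wild type. Its median was 0.0840 for Sdr9c7-/- and 0.0855 for wild type, and no source used here says how it was made. Per the labels' protocols, 200 ng of total RNA was labelled with Cy3.

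Intensities were taken to log2, 1377 control spots and 192 outlier spots left out, spots of a probe averaged, and each array's 75th percentile over 39417 probes subtracted. Probes were named through a RefSeq gene table (28330 by accession, 2204 by symbol, 174 by synonym, and 8721 kept the file's name, of 39429 probes, 12 of which had no usable spot). Probes of a gene that were unsaturated and well above background on both arrays were averaged. With 1 array per genotype no test was run, and the number of arrays limits the precision. The members were chosen with earlier results of these data known, as were the gene lists and thresholds. Named were all members, Sdr9c7 and up to 2 genes at each end of a list. Added after the values were seen were Tgm1, Krt1, Krt10, Ovol1, Fosl1, Klf4, Grhl3, Prr9, 2310050C09Rik, the filaggrin probes and the Rptn and Flg2 promoters. No protein table was used, so coding probes were found by their codons. Probe coordinates are mm9 and promoters GRCm38.p6, and the builds were not mixed. Alternatives were normexp background correction (offset 50), scaling to the median or over detected probes, quantile or loess normalization (limma 3.58.1 in R 4.3.3), the series matrix, no filter on dim probes, the brightest probe per gene, and leaving out slide areas with scattered spots. Values were computed in Python 3.11.15 with pandas 2.3.3 and biopython 1.88, and the steps were tested on simulated data.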

Additional observations from a re-analysis of the deposited data

How the results depend on the processing

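The members' values depended little on the processing. Under all 9 alternatives the counts of members at least 2-fold apart stayed at 4 lower and 0 higher in Sdr9c7-/- skin, and no member changed sign or moved by more than the SD between probes of a gene where it had a value. Lce1m, Hrnr, Rptn and Tchhl1 had none with the slide areas left out. The Lce1 median ran from −0.89 to −0.80, the Lce3 median from 0.23 to 0.29, Lce6a from −0.67 to −0.62, the fused S100 median from −0.36 (over Flg2 and Tchh alone, with the slide areas left out, which removes both higher genes) to −0.29, the median of the other envelope genes from −0.35 to −0.26, and Lce1 minus Lce3 from −1.14 to −1.05. The alternatives moved the median of all genes by less than 0.1, between −0.07 (no filter on dim probes) and 0.01 (scaled to the median). The count of Lce1 genes at least 1.5-fold lower, examined after the values were seen, was 12, and 10 with median, quantile or loess scaling, where Lce1m and Lce1f no longer passed. It was 11 with normexp, with scaling over detected probes and with the series matrix, where Lce1m did not pass. Counts over all genes did change. At least 2-fold lower were 103 genes with normexp background correction and 978 with no filter on dim probes, against 308. At least 2-fold higher were 33 with normexp, 814 with no filter and 79 with the slide areas left out, against 120. The last leaves 20405 genes, and no filter takes 31035. With those areas left out 13 Lce1 genes remained, all lower. No replicate could be left out, since each genotype had 1 array. No paired analysis was possible because each genotype had 1 array. Signals near background limit Lce3f, Rptn and Lelp1.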
